A study of Mus musculus with 4 samples.

Results

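The AP-1 family of transcription factor genes was examined in sorted cells of the mouse retina. The family was taken as Fos, Fosb, Fosl1 and Fosl2, which encode the Fos proteins, Jun, Junb and Jund, which encode the Jun proteins, and Atf3, a stress-induced relative. These 8 genes, of 21831 measured, were found by symbol, and all of them had an accepted FPKM estimate in each of the 4 libraries. The family was selected with earlier results of the same libraries in view, in which members were among the large differences between the genotypes of the Cd73-negative cells. Every value below is therefore a description, and none is independent support for the choice.

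AP-1 is a dimer of basic leucine zipper proteins. Jun proteins pair with one another or with Fos proteins, whereas Fos proteins need a Jun partner to bind DNA, and the dimers recognise TGAGTCA and closely related letters in promoters and enhancers. Fos, Fosb, Jun and Junb are immediate-early genes, whose transcripts appear within minutes of growth factor signalling, neuronal activity or tissue stress and decay quickly, while Jund is transcribed more steadily. In the retina they are known as responders to light and injury, in neurons and in Müller glia, the radial support cells that span the tissue.

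RNA was sequenced from retinas of mice of the slc:ICR background at postnatal day 12. The cells were sorted by Cd73, the surface enzyme encoded by Nt5e that marks rods and their precursors, into a Cd73-negative fraction (Cd73N, the other retinal cells) and a Cd73-positive fraction (Cd73P, rods). Each fraction came from wild-type retina and from Ezh2-cKO retina, where floxed Ezh2, a histone H3 methyltransferase of the Polycomb repressive complex, is deleted by a Cre driven from Dkk3 in retinal progenitors, so that all cell types derived from those progenitors can be affected. The controls were littermates without the deletion, and how many retinas entered each library is not stated. All cells passed through warm trypsin, antibody staining and sorting before lysis.

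Because each group had 1 library, differences have no replicate check and were not tested. Each standard error (SE) comes from the deposited FPKM bounds and covers counting error within a library. FPKM counts fragments relative to transcript length and to the mapped total of the library, so that levels can be compared between genes. Ratios are on the log2(FPKM + 1) scale, which understates ratios of weakly expressed genes, and a gene was counted as higher or lower at a 1.5-fold difference on that scale. Nt5e was at 0.844 and 0.609 FPKM in Cd73N and at 125 and 123 FPKM in Cd73P, as the fraction labels have it. Ezh2 was at 14.1 FPKM in wild type and 15.9 FPKM in Ezh2-cKO of Cd73N, and at 5.38 and 3.45 FPKM in Cd73P. In Cd73N the transcript was thus not reduced under the Ezh2-cKO label, and a gene-level value does not show the loss of a floxed exon, so the libraries are named by their labels throughout. The genotypes also differed in Xist, the X-inactivation transcript, at 52.2 and 240 FPKM in Cd73N and at 47.0 and 95.6 FPKM in Cd73P, and its part in the values below was not tested. Relative depth lay between 1 and 1.17.

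The 4 members that were higher in Cd73N of the Ezh2-cKO label are shown by their proximal promoters, because the letters within them differ between Fos, Fosb and Junb on one side and Jun on the other. The windows run from 250 bases before to 50 bases after the RefSeq start on build GRCm38.p6. They are written 5′ to 3′ on the gene's strand, and each was found once on the same chromosome of mm9. The Fos window is chr12:85473640-85473939 (plus strand), the Fosb window chr7:19309996-19310295 (minus), the Junb window chr8:84978699-84978998 (minus) and the Jun window chr4:95052173-95052472 (minus). Capitals mark TGACG, the core of a cAMP response element, and in Jun TGACATCA, the AP-1-like element of that promoter.
Fos promoter: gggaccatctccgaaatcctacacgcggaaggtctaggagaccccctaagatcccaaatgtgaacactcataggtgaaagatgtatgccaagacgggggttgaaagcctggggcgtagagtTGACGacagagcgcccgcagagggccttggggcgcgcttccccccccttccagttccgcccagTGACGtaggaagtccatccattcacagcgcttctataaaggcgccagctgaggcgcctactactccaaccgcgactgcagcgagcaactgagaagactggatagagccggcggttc
Fosb promoter: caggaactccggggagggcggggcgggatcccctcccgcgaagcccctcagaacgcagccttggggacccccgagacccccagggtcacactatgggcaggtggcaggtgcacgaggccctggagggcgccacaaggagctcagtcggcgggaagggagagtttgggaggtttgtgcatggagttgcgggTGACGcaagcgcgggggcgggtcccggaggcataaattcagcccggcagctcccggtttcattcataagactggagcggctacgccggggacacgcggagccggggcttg
Junb promoter: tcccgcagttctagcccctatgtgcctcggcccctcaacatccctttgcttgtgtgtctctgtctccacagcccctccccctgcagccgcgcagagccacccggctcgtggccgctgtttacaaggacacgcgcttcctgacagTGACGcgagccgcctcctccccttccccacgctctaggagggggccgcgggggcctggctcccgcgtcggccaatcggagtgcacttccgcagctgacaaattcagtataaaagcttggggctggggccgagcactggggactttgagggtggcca
Jun promoter: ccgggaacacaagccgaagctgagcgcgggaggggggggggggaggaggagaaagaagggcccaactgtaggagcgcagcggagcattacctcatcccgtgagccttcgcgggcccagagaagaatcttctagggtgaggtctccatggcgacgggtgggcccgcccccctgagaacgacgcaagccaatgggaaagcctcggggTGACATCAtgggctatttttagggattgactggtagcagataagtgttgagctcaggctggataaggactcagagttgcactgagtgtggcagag

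Searched on both strands, TGACG stood in the Fos window 129 and 66 bases before the start, in the Fosb window 60 bases before it and in the Junb window 106 bases before it. It was also in the Atf3 window, on the opposite strand 7 bases before the start, which makes 4 of the 7 members that have a window in the table. Of all 32851 mouse promoter windows, 20.8% held these letters. TGACATCA was in the Jun window alone of the 7, 45 bases before the start, against 3.62% of all windows. No member window held the complete TGACGTCA (1.79% of all windows), which contains TGACG, the AP-1 element TGAGTCA (5.20%) or a CArG box, the site of serum response factor (1.63%). The letters TATAA (24.9% of all windows) began 33 bases before the start in Fos but at the start itself in Junb. Distances therefore depend on the RefSeq start used and may not compare between these genes. These are matches of letters within a short window and say nothing of binding.

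The members differ in gene structure. On mm9, Fos lies at chr12:86814851-86818219 (plus strand), Fosb at chr7:19888045-19895394 (minus), Fosl1 at chr19:5447698-5455938 (plus), Fosl2 at chr5:32438845-32460212 (plus) and Atf3 at chr1:192994176-193007212 (minus), each with 4 exons in the longest annotated coding transcript. Jun at chr4:94715727-94718913 (minus), Junb at chr8:87500808-87502647 (minus) and Jund at chr8:73221638-73224515 (plus) have a single exon. Genes on the opposite strand overlap 689 bases of Jun, 543 bases of Jund and 2776 bases of Fosl1, and since the library kit does not mark strand, their reads cannot be told apart there. Fosb also encodes the shortened protein ΔFosB by splicing, and the gene-level values here do not separate the forms.

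Fos transcripts were abundant and stood highest in the Cd73N library labelled Ezh2-cKO. In Cd73N, Fos was at 53.3 FPKM (wild type) and 465 FPKM (labelled Ezh2-cKO), and in Cd73P at 25.7 FPKM (wild type) and 49.5 FPKM (labelled Ezh2-cKO). The Cd73N value under the Ezh2-cKO label stood far above the other 3, of which wild-type Cd73P was the lowest. In Cd73N the ratio was 8.73-fold without a pseudocount, a log2 ratio of 3.10 (SE 0.026), and Fos moved from place 1503 to place 79 among the genes ordered by FPKM. In Cd73P it was 1.92-fold, a log2 ratio of 0.92 (SE 0.043). Fos lay above its own deposited upper bound in all 4 libraries, as at 465 FPKM against bounds of 417 and 427 FPKM in Cd73N labelled Ezh2-cKO. Fosb, Jun, Junb and Jund also lay above theirs in that library. These SEs therefore rest on the width of bounds that leave out the value itself.

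Fosb was scarce in 3 libraries and moderate in 1. Its levels were 1.67 FPKM (wild type) and 33.9 FPKM (labelled Ezh2-cKO) in Cd73N, and 1.02 FPKM (wild type) and 2.06 FPKM (labelled Ezh2-cKO) in Cd73P. The Cd73N ratio was 20.2-fold without a pseudocount, a log2 ratio of 3.70 (SE 0.070), which was place 2 of 21705 genes ordered by that ratio. Fos took place 12 in the same order, Junb place 32 and Jun place 87. In Cd73P the log2 ratio of Fosb was 0.59 (SE 0.089), just at the 1.5-fold limit.

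**Figure D1:**
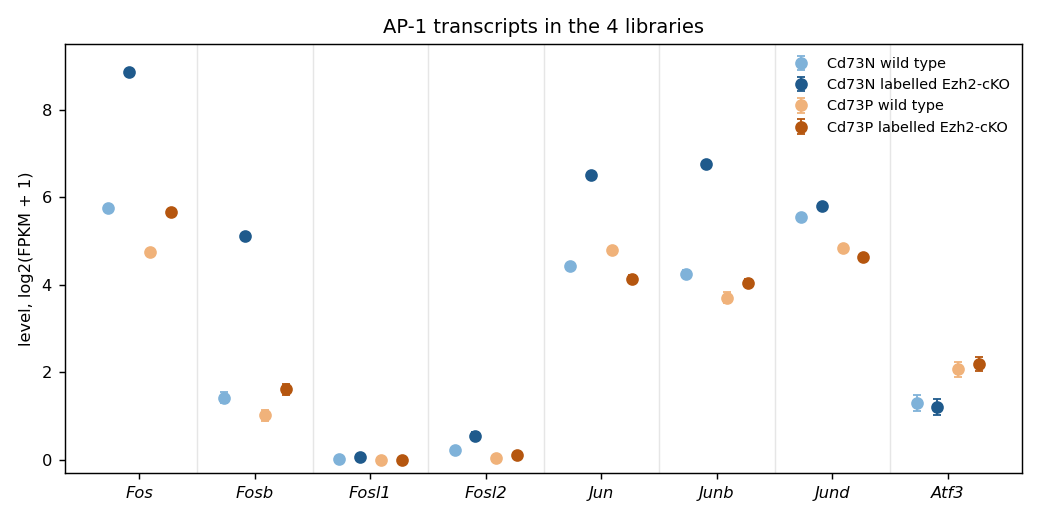
Level of each AP-1 member as log2(FPKM + 1) in the 4 libraries, 1 point per library, with bars of 2 counting SE that are often smaller than the point. For Fos, Fosb, Jun and Junb the Cd73N library labelled Ezh2-cKO (dark blue) is separated upward from the other 3, whereas Jund and Atf3 are ordered by fraction and Fosl1 and Fosl2 stay near 0.

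The remaining Fos genes contributed almost nothing. Fosl1, which encodes Fra-1, had 0.017 FPKM (wild type) and 0.046 FPKM (labelled Ezh2-cKO) in Cd73N, and was listed at practically 0 in both Cd73P libraries. No ratio is given for it. Fosl2, which encodes Fra-2, had 0.175 and 0.466 FPKM in Cd73N and 0.027 and 0.074 FPKM in Cd73P, wild type given first. Without a pseudocount the genotype ratios of Fosl2 were 2.65-fold in Cd73N and 2.76-fold in Cd73P, but at these levels the log2(FPKM + 1) ratios were 0.32 (SE 0.049) and 0.07 (SE 0.024).

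Among the Jun genes, Jun and Junb were high in the Cd73N library labelled Ezh2-cKO and Jund was nearly level. In Cd73N, Jun was at 20.4 FPKM (wild type) and 90.6 FPKM (labelled Ezh2-cKO), and in Cd73P at 26.6 FPKM (wild type) and 16.6 FPKM (labelled Ezh2-cKO). It was the one member that was higher by 1.5-fold in one fraction and lower by 1.5-fold in the other, with log2 ratios of 2.10 (SE 0.037) in Cd73N and -0.65 (SE 0.045) in Cd73P. The Cd73N minus Cd73P difference of the log2 ratios was 2.74 (SE 0.058). Its Cd73P ratio lies close to the limit.

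Junb, whose protein is often a weaker activator than Jun, was at 17.9 FPKM (wild type) and 107 FPKM (labelled Ezh2-cKO) in Cd73N, and at 12.0 FPKM (wild type) and 15.4 FPKM (labelled Ezh2-cKO) in Cd73P. Its pattern thus resembled that of Fos, with log2 ratios of 2.52 (SE 0.050) in Cd73N and 0.34 (SE 0.081) in Cd73P. Jund was at 45.7 and 55.0 FPKM in Cd73N and at 27.8 and 24.0 FPKM in Cd73P, wild type first. Its log2 ratios of 0.26 (SE 0.031) and -0.20 (SE 0.044) were both within the 1.5-fold limit. Jund was therefore the second most abundant member in Cd73N wild type and the fourth in Cd73N labelled Ezh2-cKO.

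Atf3, which encodes a stress-response repressor that pairs with Jun proteins, did not share this pattern. Its levels in Cd73N were 1.46 FPKM (wild type) and 1.30 FPKM (labelled Ezh2-cKO), and those in Cd73P were 3.21 and 3.55 FPKM. The genotype log2 ratios were -0.10 (SE 0.13) in Cd73N and 0.11 (SE 0.11) in Cd73P, each smaller than its SE or close to it. Both Cd73P values were above both Cd73N values.

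Counted together, 4 of the 8 members (Fos, Fosb, Jun and Junb) were higher in Cd73N labelled Ezh2-cKO, beside 7.18% of all genes, and 0 were lower, beside 1.71%. In Cd73P, 2 members (Fos and Fosb) were higher, beside 2.26% of all genes, and 1 (Jun) was lower, beside 2.39%. Since the family was selected with the Cd73N genotype results known, these counts are not read against the shares. The median log2 ratio of the members was 1.21 in Cd73N and 0.09 in Cd73P, where that of all genes was 0 in both. The Cd73N minus Cd73P difference of the genotype log2 ratios was 2.19 for Fos (SE 0.050), 3.11 for Fosb (SE 0.11) and 2.19 for Junb (SE 0.095).

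**Figure D2:**
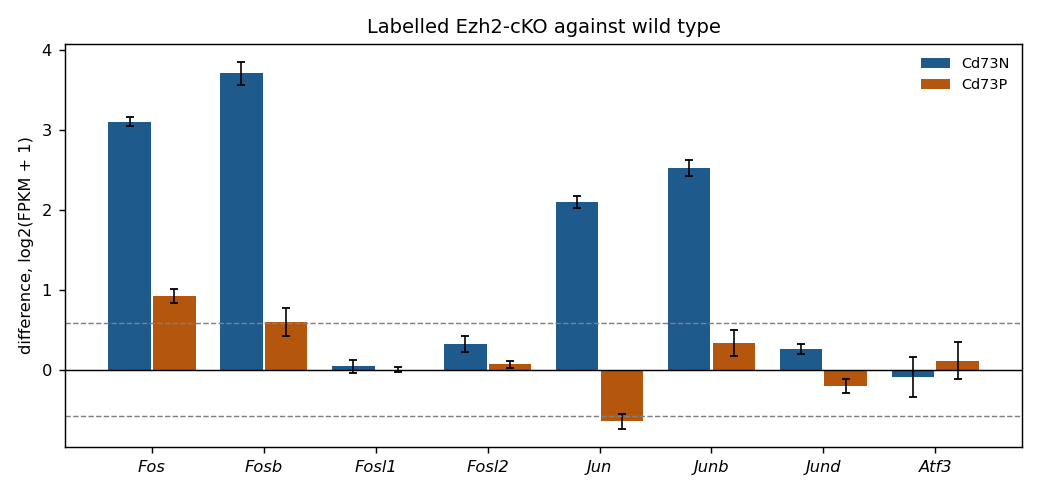
Difference of log2(FPKM + 1) between the library labelled Ezh2-cKO and wild type for each AP-1 member, in Cd73N (blue) and Cd73P (orange), with bars of 2 counting SE and dashed lines at 1.5-fold. Fos, Fosb, Jun and Junb reach between 2.10 and 3.70 in Cd73N, whereas in Cd73P the values run from -0.65 for Jun to 0.92 for Fos.

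The fraction comparisons use the same 4 libraries and so share values with the genotype comparisons. In wild type, 1 member (Atf3) was higher in Cd73P, beside 9.07% of all genes, and 2 (Fos and Jund) were lower, beside 27.9%. The log2 ratio of Cd73P to Cd73N was -1.02 (SE 0.043) for Fos, -0.70 (SE 0.038) for Jund, -0.54 (SE 0.079) for Junb, -0.40 (SE 0.091) for Fosb, 0.37 (SE 0.044) for Jun and 0.77 (SE 0.12) for Atf3. Scaling the libraries by their median ratio or FPKM sum multiplies FPKM by factors whose log2 ratio here was 0.31 or 0.42. With the pseudocount the shift is unequal between members, and the log2(FPKM + 1) ratio of Fosb moved by less, to -0.24 or -0.17. The scaling puts Jun past the limit as higher and takes Jund inside it. The log2 ratio of the factors was 0.27 or 0.21 between the fractions of the Ezh2-cKO label, 0.09 or 0.15 between the Cd73N genotypes, and 0.04 or -0.06 between the Cd73P genotypes.

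In the libraries labelled Ezh2-cKO the fractions stood far apart. Lower in Cd73P were 5 members (Fos, Fosb, Jun, Junb and Jund), beside 29.1% of all genes, and 1 (Atf3) was higher, beside 8.4%. The log2 ratios of Cd73P to Cd73N were -3.21 (SE 0.027) for Fos, -3.51 (SE 0.068) for Fosb, -2.72 (SE 0.053) for Junb, -2.38 (SE 0.038) for Jun, -1.16 (SE 0.039) for Jund and 0.98 (SE 0.12) for Atf3. The median over the members was -0.30 in wild type and -1.77 under the Ezh2-cKO label, beside -0.05 and -0.09 for all genes, many of them near 0 FPKM. Among genes with at least 1 FPKM in 1 of the 2 libraries, both wild-type medians were -0.47, so the members did not stand apart. Under the label they were -2.55 for members and -0.46 for all genes. Lower in Cd73P at that level were 2 of 6 members and 5736 of 12488 genes in wild type, and 5 of 6 and 5911 of 12974 under the label.

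**Figure D3:**
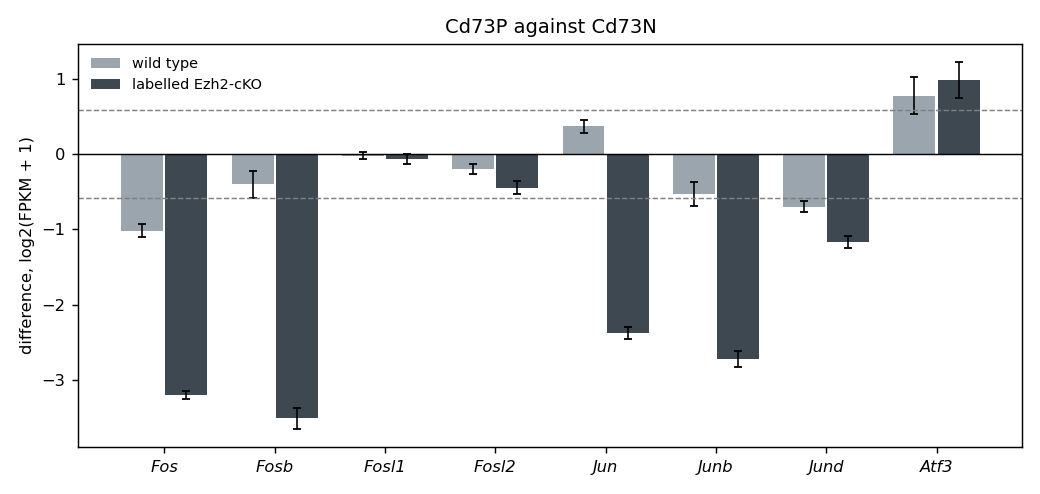
Difference of log2(FPKM + 1) between Cd73P and Cd73N for each AP-1 member, in wild type (light) and in the libraries labelled Ezh2-cKO (dark), with bars of 2 counting SE and dashed lines at 1.5-fold. Atf3 is above 0 in both genotypes, Jun is above 0 in wild type only, and the dark bars of Fos, Fosb, Jun and Junb reach below -2.

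The AP-1 transcript pool differed in size and make-up. The summed FPKM of the 8 members was 141 (wild type) and 754 (labelled Ezh2-cKO) in Cd73N, and 96.4 and 111 in Cd73P. The 4 Fos genes held 39.2% of that sum in Cd73N wild type and 66.3% in Cd73N labelled Ezh2-cKO, and 27.8% and 46.4% in the Cd73P libraries. The ratio of summed Fos to summed Jun family FPKM, 2 sets of genes whose proteins pair, was 0.656 and 1.97 in Cd73N and 0.403 and 0.921 in Cd73P. The Jun family was thus the larger in every library but the Cd73N library labelled Ezh2-cKO. Jund fell from 32.5% to 7.30% of the pool in Cd73N, although its own FPKM was slightly higher there.

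**Figure D4:**
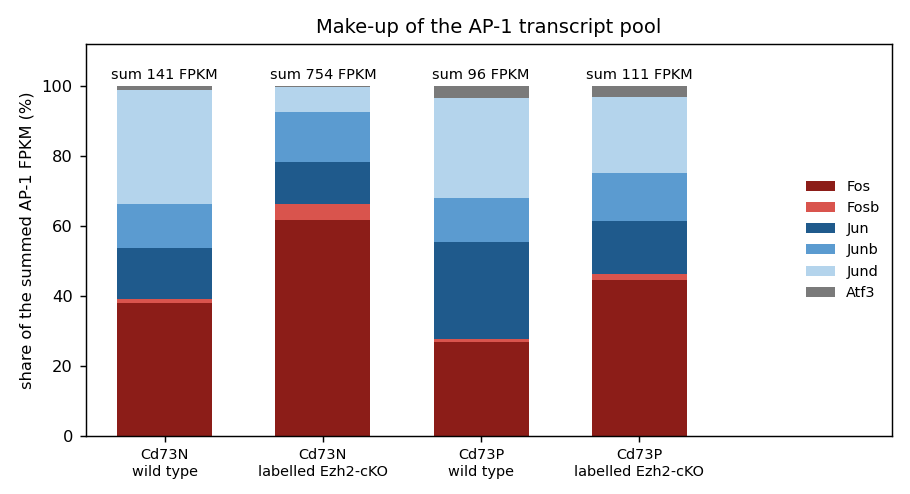
Share of each AP-1 member in the summed FPKM of the family, in percent, with 1 bar per library and the sum above it (Fosl1 and Fosl2 are too small to draw). Between wild type and the Ezh2-cKO label the Fos segment grows from 37.9% to 61.7% (Cd73N) and from 26.7% to 44.5% (Cd73P), while the Jund segment shrinks.

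Markers of other cells moved with these values. Müller glia markers, a list of 12, were all higher in Cd73N labelled Ezh2-cKO, beside 7.18% of all genes. The list includes genes the study itself picked from these libraries. The summed FPKM of the 12 was 1329 in wild type and 6194 under the label, a ratio of 4.66. The ratios of the AP-1 members on the same scale were 20.2 for Fosb, 8.73 for Fos, 6.01 for Junb and 4.43 for Jun. A ratio of sums is weighted to the most abundant markers, and single Müller markers differed widely. On log2(FPKM + 1) their median ratio was 2.09. Aqp4 was the highest at 3.16 (6.89 and 69.6 FPKM), and Car2 was the lowest, at 187 and 445 FPKM. On that scale Fosb had 3.70, Fos 3.10, Junb 2.52 and Jun 2.10. In Cd73P the Müller sum was 278 and 457 FPKM, a ratio of 1.64, and Car2 alone held 163 and 215 FPKM of it. There 8 of 12 markers were higher, beside 2.26% of all genes, and 0 lower, beside 2.39%, with a median log2 ratio of 0.91. Dkk3, whose promoter drives the Cre and which is itself a marker on this list, was at 123 and 916 FPKM in Cd73N. In bulk libraries more cells of a type and more RNA per cell cannot be told apart, and the part of these markers in the AP-1 values was not tested.

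The summed microglia markers were at 80.2 and 118 FPKM in Cd73N, with 4 of 7 higher and 0 lower, and at 16.9 and 21.4 FPKM in Cd73P, with 0 of 7 past the limit. Endothelial and pericyte markers were at 221 and 324 FPKM in Cd73N, with 1 of 7 higher, and astrocyte markers at 7.51 and 19.1 FPKM, with 2 of 4 higher. Of the neuronal lists in Cd73N, 3 of 7 cone markers were higher, and 6 of 8 rod and 4 of 8 bipolar markers were lower. Amacrine, ganglion cell and horizontal lists had 1 of 5, 1 of 6 and 0 of 5 higher and 0, 1 and 0 lower. Of these, 3 amacrine, 3 ganglion cell and 5 horizontal markers were below 1 FPKM in Cd73N wild type, where the pseudocount holds ratios down. In Cd73P, where Fos and Fosb were higher and Jun lower, 7 of 8 bipolar markers (median log2 ratio -1.80) and 6 of 7 cone markers (median -0.99) were lower and 0 of either list higher. Of the other Cd73P lists, 1 of 7 rod markers was higher, 1 of 5 amacrine markers was lower, 1 of 7 endothelial and pericyte markers was higher and 2 lower, and 0 ganglion cell, horizontal or astrocyte markers were past the limit. The ganglion cell and horizontal markers were all below 1 FPKM in both Cd73P libraries. The part of these markers in the AP-1 values was not tested either. The levels of Fos, Fosb, Jun and Junb in Cd73P can be set beside those of Müller and other markers. As a share of its Cd73N level, the wild-type Cd73P level was 48.3% for Fos, 61.2% for Fosb, 67.2% for Junb and 130% for Jun, beside a median of 6.71% over the 12 Müller markers. Under the Ezh2-cKO label it was 10.6% for Fos, 6.07% for Fosb, 14.4% for Junb and 18.4% for Jun, beside 3.74%. Medians of other non-rod lists, wild type first, were 33.9% and 26.6% for astrocyte, 20.4% and 18.9% for microglia and 19.8% and 12.0% for ganglion cell markers. They were 5.94% and 2.08% for cone, 5.49% and 2.46% for bipolar, and 3.20% and 2.02% for endothelial and pericyte markers. Amacrine markers had 200% and 121%, over only 2 genes that went opposite ways. In wild type Gad2 was at 1.05 FPKM in Cd73N and 0.283 FPKM in Cd73P, and Slc6a9 at 6.46 and 24.1 FPKM. The ganglion cell medians also rest on 2 genes. Only markers with at least 1 FPKM in both Cd73N libraries entered these medians.

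Genes around AP-1 in the pathway were counted from lists written with earlier results known. Of 29 other immediate-early genes, 15 were higher in Cd73N labelled Ezh2-cKO, beside 7.18% of all genes, and 1 lower, beside 1.71%. Their median log2 ratio was 0.62. Zfp36, which encodes tristetraprolin, was at 3.63 and 55.6 FPKM (log2 ratio 3.61, SE 0.090), Cyr61, a secreted matrix protein gene, at 11.3 and 130 FPKM (3.41, SE 0.054), and Dusp1, a MAP kinase phosphatase gene, at 14.6 and 104 FPKM (2.74, SE 0.053). In Cd73P 3 of the 29 were higher, beside 2.26% of all genes, and 4 lower, beside 2.39%. There Zfp36 had a log2 ratio of 0.65 (SE 0.13), Cyr61 one of 1.29 (SE 0.12) and Dusp1 one of 0.02 (SE 0.067).

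Of 19 textbook AP-1 target genes, 7 were higher in Cd73N, beside 7.18% of all genes, and 0 lower, beside 1.71%, with a median log2 ratio of 0.23. Most of them were close to 0 FPKM. Of the 7 with at least 1 FPKM in 1 of the 2 libraries, 6 were higher and 0 lower, with a median of 0.85. Of all genes at that level, 1492 of 12845 were higher. This level lets in genes through the library where they are higher. Lif passed so, at 0.122 FPKM in wild type and 1.02 FPKM under the Ezh2-cKO label, and its ratio is the median. The metallothionein genes Mt2 and Mt1 were at 9.34 and 87.1 FPKM and at 23.5 and 182 FPKM, and Cd44, a hyaluronan receptor gene, at 2.10 and 12.6 FPKM, in wild type and under the Ezh2-cKO label. In Cd73P 3 targets were higher, beside 2.26% of all genes, with log2 ratios of 1.56 (SE 0.18) for Mt2 and 1.22 (SE 0.14) for Mt1. The 1 lower, beside 2.39%, was Mmp9, at only 0.705 and 0.122 FPKM. Of 13 other basic leucine zipper genes, 2 were higher in Cd73N (Maf and Maff, named after their values were seen), beside 7.18% of all genes. The 1 lower, beside 1.71%, was Nrl, the rod determinant that is also on the rod list, at 27.7 and 11.0 FPKM. In Cd73P 0 of the 13 were higher, beside 2.26% of all genes, and 2 (Jdp2 and Maf) were lower, beside 2.39%. The log2 ratio of Maf was 1.10 in Cd73N but -0.78 in Cd73P. Jdp2, whose protein pairs with Jun as a repressor, had log2 ratios of 0.39 (SE 0.082) in Cd73N and -0.71 (SE 0.13) in Cd73P.

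Kinases and factors that act on Fos and Jun were counted in the same way. Of 19, 3 were higher in Cd73N, beside 7.18% of all genes, and 0 lower, beside 1.71%, with a median log2 ratio of 0.11. The 3, named after their values were seen, were Mapk10, the neuronal JNK gene, at 3.83 and 7.68 FPKM, Map3k5 at 1.34 and 5.55 FPKM and Elk3 at 3.81 and 6.99 FPKM. Elk1, a partner of serum response factor at the Fos promoter, had a log2 ratio of -0.43 (SE 0.048), Map2k7, a kinase of JNK, one of 0.36 (SE 0.049), and Mapk8, the JNK1 gene, one of -0.34 (SE 0.039). In Cd73P 0 of 19 were past the limit, where 2.26% of all genes were higher and 2.39% lower. Of 9 heat-shock genes, 0 were past the limit in either fraction, beside the same shares of all genes. Their median log2 ratio was -0.25 in Cd73N, and Hspa8 was at 928 and 658 FPKM there.

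**Figure D5:**
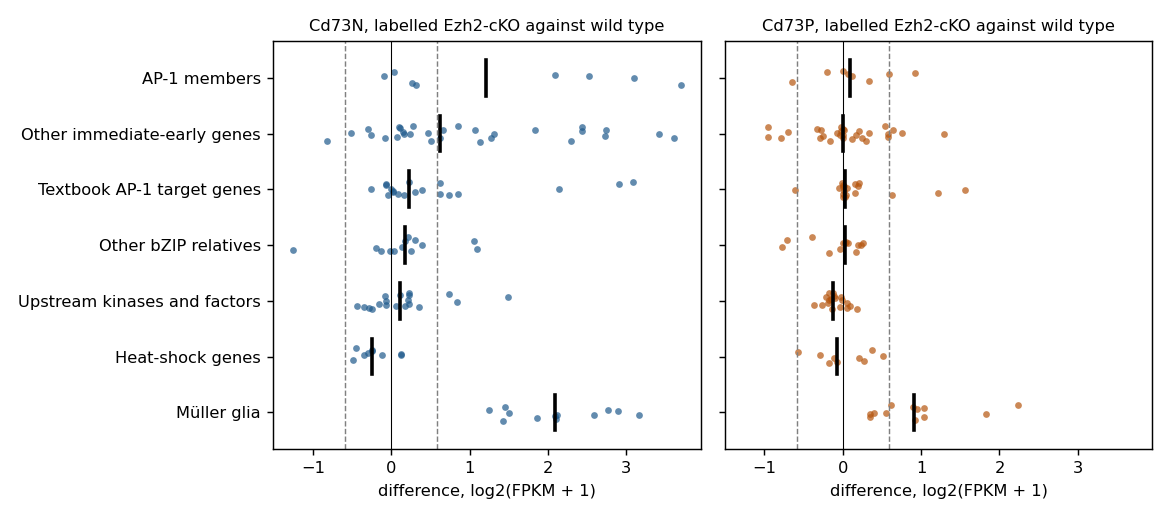
Difference of log2(FPKM + 1) between the library labelled Ezh2-cKO and wild type for every measured gene of 7 lists, in Cd73N (left) and Cd73P (right), with 1 point per gene, black bars at list medians and dashed lines at 1.5-fold. In Cd73N 4 AP-1 members lie apart from the other 4, and Müller glia markers lie wholly to the right of the limit with a median of 2.09.

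Members also varied in how alike their profiles were. The distance between profiles was taken over the 4 libraries after centring log2(FPKM + 1) on its mean. It was 0.51 between Fos and Fosb, 0.76 between Fos and Junb, 0.98 between Jun and Junb, 1.72 between Fos and Jun, 2.46 between Fos and Jund and 3.79 between Fos and Atf3. Of 7619 other genes with at least 10 FPKM in 1 library, the nearest to Fos were Folh1 (0.457), Cdkn2a (0.480), Sphk1 (0.516), Syt15 (0.554) and Plekho2 (0.560). The nearest to Fosb were Zfp36 (0.579), Pax8 (0.612), Cdkn2a (0.697), Syt15 (0.784) and Folh1 (0.787). All 5 genes nearest to Fos, and each of those nearest to Fosb, reached 10 FPKM in the Cd73N library labelled Ezh2-cKO alone, so the requirement of that level in 1 library favours this profile. All 5 nearest to Fos were also below 1 FPKM in wild-type Cd73P, where the pseudocount holds ratios down. Folh1 was at 0.032 and 0.445 FPKM in Cd73P, wild type first, and Fos at 25.7 and 49.5 FPKM. With 4 libraries the distances are a description of shape.

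AU-rich elements in the 3′ UTR, where tristetraprolin and related proteins bind short-lived mRNAs, were counted as a feature the choice of members did not use. The letters TATTTAT were in the 3′ UTR of 7 of the 8 members, all but Junb, and in 23.9% of 19915 mouse genes. They occurred 2 times in Fos, in a 3′ UTR of 815 bases, and 20.2% of genes with a 3′ UTR of like length held them. They occurred 1 time in Jun, in 1233 bases, beside 30.1% of genes of like length, and 1 time in Fosb, in 2120 bases, beside 40.3%. Jund and Atf3, which lack the Cd73N rise, also held the letters, 1 time each, beside 14.4% and 29.2% of genes of like length. For Fosl1 (1 time) that share was 17.1%, for Fosl2 (3 times) 60.9% and for Junb 12.3%. The shorter letters ATTTA occurred 4 times in Fos, 4 in Jun, 2 in Junb and 1 in Fosb. In genes of like length the medians were 1, 2, 0 and 3. They occurred 8 times in Fosl2, 3 in Atf3, 1 in Fosl1 and 1 in Jund, beside medians of 7, 2, 1 and 1. The first site of 3 members is shown with its flanks, in DNA letters from the mm9 transcripts and with the element in capitals.
Fos site: ttttcaattTATTTATtaagatgga
Fosb site: acccccagcTATTTATccctttcct
Jun site: gcttgtgcaTATTTATaatagcgtt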

How the data were processed

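Poly(A) RNA of 4 sorted retinal samples, 1 per group, was sequenced as 36-base single-end reads with a kit that does not mark strand. Per the submitters' processing notes and the study's methods, the authors aligned reads to mm9 with TopHat 2.0.8b (a read could keep 50 hits) and made FPKM with Cufflinks 2.1.1, and the deposited tables hold FPKM with a lower and an upper bound and a status for 23021 rows per library. FPKM was not rescaled between libraries. Reads that map to several places can be shared between related genes.

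Rows sharing a symbol were summed (235 symbols), 784 small-RNA rows were left out, and a gene needed OK status in both libraries of a pair. Ratios were log2(FPKM + 1) differences. SEs took the width of the deposited bounds as 4 SE. These bounds are imperfect, since 25.0% to 27.8% of rows above 1 FPKM lay above their own upper bound, so they were used for width only. Absolute depth is unknown, and relative depth was the median, over 6275 genes, of fragments per FPKM implied by the bounds. Groups came from the sample titles.

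The members and the 6 pathway and 10 marker lists were chosen with earlier results of these data known. All members were named. Genes of each other pathway list were named from the 3 largest Cd73N genotype ratios in either direction, among genes with at least 10 FPKM in 1 of the libraries compared. Atf4, Dnajb1 and Hspe1 met this rule but are not described. Maf, Maff, Mapk10, Map3k5 and Elk3 were named outside the rule, as was Mmp9. Some marker genes were not analysed here. Promoter windows came from the RefSeq table (GRCm38.p6), where 7 of 8 members matched by symbol, and 3′ UTRs from GENCODE transcripts on mm9. Listed starts count from 0, so 1 was added. The counting step was tested on simulated data. Alternatives were other pseudocounts, scalings, thresholds, filters and bounds. Computation used Python 3.11.15, numpy 2.4.6 and pandas 2.3.3.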

Additional observations from a re-analysis of the deposited data

Results flagged for a closer look

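The genotype ratios of 3 members had opposite directions in the fractions. For Jun, the Cd73N log2 ratio was 2.10 and the Cd73P log2 ratio -0.65, which differ by 2.74. For Jund it was 0.26 and -0.20, which differ by 0.47. For Atf3 it was -0.10 and 0.11, which differ by -0.21 (Cd73N minus Cd73P) with a counting SE of 0.17. With 1 library in each group these differences were not tested.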

How the results depend on the processing

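In Cd73N the counts of members higher (4) and lower (0) under the Ezh2-cKO label stayed within 1.5 times under each alternative run, as did the 5 members lower in Cd73P of the Ezh2-cKO label. A pseudocount of 0.1 gave 5 higher in Cd73N. In Cd73P the members higher were 1 with a pseudocount of 5, 0 at a 2-fold threshold and 1 at FPKM of at least 10, and the members lower were 0 with a pseudocount of 5 and 0 at a 2-fold threshold. Between the wild-type fractions, the members higher in Cd73P were 0 with a pseudocount of 5, 0 at a 2-fold threshold, 0 at FPKM of at least 10, and 2 under median scaling and 2 under FPKM sum scaling. The members lower there were 4 with a pseudocount of 0.1, 1 under median scaling, 1 under FPKM sum scaling and 1 at a 2-fold threshold. Between the fractions of the Ezh2-cKO label, the members higher were 0 with a pseudocount of 5, 0 at a 2-fold threshold and 0 at FPKM of at least 10. Stricter thresholds and filters lower counts by construction. For the scalings and pseudocounts the cause was not tested. No single-member ratio with a 1.5-fold call changed sign. Beyond counting error, a pseudocount of 5 moved 20 single-member ratios and left 12, one of 0.1 moved 13 and left 19, median scaling moved 14 and left 18, and FPKM sum scaling moved 15 and left 17. A ratio without pseudocount, chosen after seeing the data, moved 6 and left 18. No paired analysis was possible because each group has 1 library and the labels give no replicate numbers. Animals, sorts and days were not repeated, so no value has a biological error.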
